A study of Mus musculus with 6 samples.

Results

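Insulin-like growth factor (IGF) signalling was followed through 10 genes of the 28324 in a single-cell RNA table from mouse hippocampus: the ligands Igf1 and Igf2, the receptors Igf1r and Igf2r, and the binding proteins Igfbp2, Igfbp3, Igfbp4, Igfbp5, Igfbp6 and Igfbp7. The genes were listed by name, as the ligands, receptors and binding proteins of this system, and the list was chosen by a measured value, the difference of Igfbp5 between treatments in astrocytes relative to other classes. The data came from Drop-Seq, in which single cells are caught in droplets with barcoded beads and the 3' ends of their transcripts are counted by unique molecular identifier (UMI). All 6 mice were APP/PS1 animals (B6.Cg-Tg(APPswe,PSEN1dE9)85Dbo), which carry amyloid transgenes and serve as a model of amyloid deposition, and all were 10 weeks old per the labels. Of these, 3 had received an antisense oligonucleotide (ASO) and 3 phosphate buffered saline (PBS), so there was neither a control oligonucleotide nor a mouse without the transgenes. The title of the study names reduction of IDOL, the ubiquitin ligase encoded by Mylip, which targets lipoprotein receptors for degradation. Mice are called by group and number, and the numbers follow the order of the samples.

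IGF-1 and IGF-2 are small secreted proteins related to insulin. Both act through the tyrosine kinase IGF1R, while IGF2R (the cation-independent mannose 6-phosphate receptor) takes up IGF-2 for breakdown in lysosomes. The binding proteins hold the ligands outside cells and can prolong or block their action, and proteases release the ligands again. IGFBP7 binds the ligands only weakly and is known as a protein of the vessel wall. In the brain, microglia, some interneurons, the meninges, the choroid plexus and vessels are known sources of these ligands.

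The 12616 cells kept fell into 17 classes named by the authors. Treatments were compared in the 10 classes with no fewer than 20 cells in each animal. Per mouse there were 1751 to 2822 cells and 2005768 to 3150332 UMIs, with a median of 1027 to 1096 UMIs per cell. The fixed marker genes of each tissue class stood highest in the class of that name, and 8 cell barcodes occurred in more than 1 mouse. Mylip, the checked target, was lower after ASO in the microglia and macrophage class (log2 fold change -1.05 ± 0.18, SE; adjusted p = 0.00418, edgeR quasi-likelihood test), with 385, 422 and 440 normalised CPM (counts scaled by library total) under PBS, against 189, 221 and 200 under ASO. In all cells its fold change was -0.99 with an adjusted p of 0.0527. Choroid plexus RNA was free in the suspension: Ttr, the main transcript of that tissue, was counted at 1867 to 6485 CPM in endothelial cells of 5 mice and at 38.2 CPM in those of PBS mouse 3. Levels below are CPM of all UMIs of a class unless called normalised, and they are set between classes for 1 gene at a time.

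Igfbp2 and Igfbp5 are neighbours, and their upstream sequences are shown because the pair differed in where it was read. On GRCm38 chromosome 1, Igfbp2 lies at 72824503-72852474 on the plus strand and Igfbp5 at 72857932-72874884 on the minus strand (GENCODE M21), so their 3' ends face each other across 5457 bases. The 100 bases before the RefSeq start of each gene (GRCm38.p6, read 5′ to 3′ in the gene's own direction, Igfbp2 at chr1:72824380-72824479 on the plus strand and Igfbp5 at chr1:72874866-72874965 on the minus strand) were as follows, with matches to the searched motifs in capitals.
Igfbp2: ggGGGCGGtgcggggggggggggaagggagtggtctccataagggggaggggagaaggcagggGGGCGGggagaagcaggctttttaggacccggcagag
Igfbp5: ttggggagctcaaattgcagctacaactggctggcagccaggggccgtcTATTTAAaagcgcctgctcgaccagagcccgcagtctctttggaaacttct
The Igfbp2 stretch was 71% G or C and held GGGCGG, the letters of a GC box, at 2 places, whereas the Igfbp5 stretch was 55% G or C and held TATTTAA, a variant of the TATA box. Of 32851 promoters with 100 bases each, 24.7% held GGGCGG and 1.504% held TATTTAA on either strand. TATAAA (5.56% of promoters), TATATA (2.19%) and CCAAT (18.9%) were in neither stretch. No match overlapped another, and a match is a description of letters only. Igfbp2 has another RefSeq start, which is not shown.

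**Figure D1:**
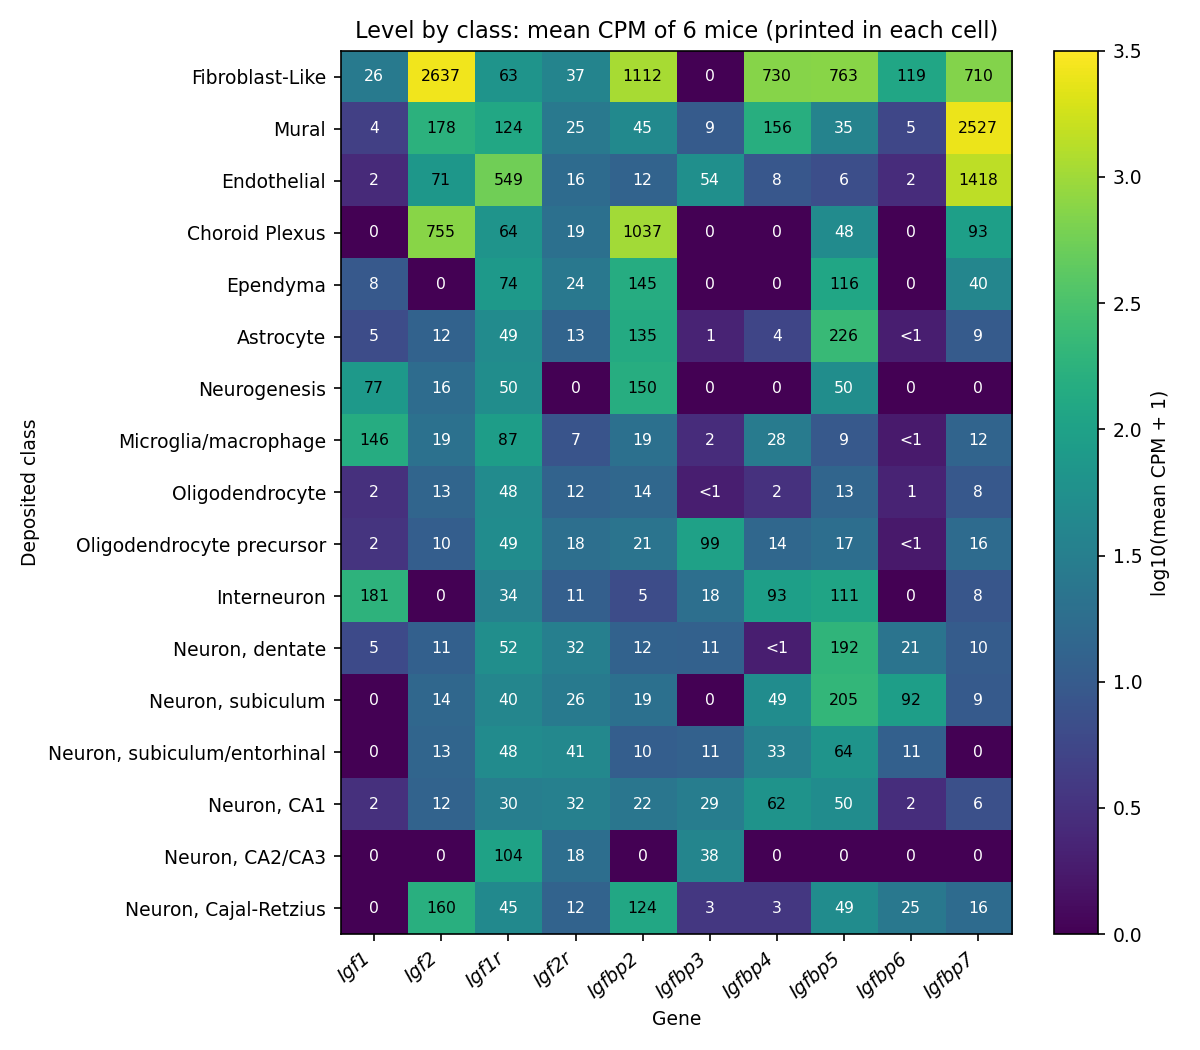
Mean level of each IGF gene (columns) in each deposited class (rows), in CPM over 6 mice, printed in the cells and coloured on a log10 scale. Within its column Igf1r is brightest in endothelial cells (549), Igfbp7 in mural cells (2527) and Igf2 in fibroblast-like cells (2637).

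The ligand Igf1 was read in few cells. Of its UMIs, 81.8% came from the microglia and macrophage class, where the level was 146 ± 34.5 CPM (SD, n = 6 mice) and lay between 94.3 and 184 CPM. Interneurons stood at 181 ± 46.6 CPM (118 to 245), so the ranges of both classes overlapped, and the interneuron value rests on 25 UMIs in 105 cells. Every mouse had Igf1 UMIs in both classes. Astrocytes held 5.49 CPM, oligodendrocytes 2.03 and endothelial cells 1.61. Fibroblast-like cells had a mean of 26.1 CPM from 4 UMIs in 3 mice. The 40 cells of the neurogenesis class gave a mean of 77.3 CPM from 1 UMI in 1 mouse.

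Within the microglia and macrophage class, Igf1 was concentrated in a minority of cells. No Igf1 UMI was seen in 1678 of 1852 cells, 1 UMI in 113 cells, and 2 or more in 61 cells, which held 60.6% of the UMIs of the class. These 61 cells (median 1549 UMIs, against 957 in cells with none) were compared with the 1678 as a description, chosen after the values were seen. By ratio, the 5 leading genes were Gpnmb, a glycoprotein of phagocytic cells (357 against 16.6 CPM), Wfdc17 (802 against 92.5), Cst7, which encodes cystatin F (2640 against 561), Apoe, the lipid carrier (28677 against 7566), and Lpl, lipoprotein lipase (1270 against 318). Cst7 and Apoe were higher in the Igf1-rich cells of 6 of 6 mice, Wfdc17 and Lpl in 5 and Gpnmb in 4. Tmem119, a marker of resident microglia, was at 78.0 against 500.4 CPM. P2ry12, a purinergic receptor of resting microglia, was at 691 against 1574 CPM. Both were higher in the Igf1-rich cells of 0 of 6 mice. The macrophage markers Mrc1 (189 against 82.3 CPM) and Pf4 (334 against 92.0 CPM) had higher levels in the Igf1-rich cells, in 2 and 3 of 6 mice.

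Macrophage marker RNA (Mrc1, Pf4, Cd163, Lyve1, F13a1 or Ms4a7) was present in 121 cells of that class. Igf1 stood at 250 CPM in these cells (35 UMIs) and at 137 CPM in the 1731 others (252 UMIs). Igfbp4 stood at 129 CPM (18 UMIs) and 20.6 CPM (38 UMIs). Most Igf1 UMIs of the class were thus in cells without a macrophage marker.

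Igf2 was highest in fibroblast-like cells, which form the membranes around vessels and the brain surface. In 108 such cells its level was 2637 ± 1408 CPM, from 704 to 4664 CPM over 6 mice, and they held 39.4% of the 751 Igf2 UMIs. The choroid plexus class, 39 cells, came next at 755 ± 469 CPM, and these ranges overlapped. Mural cells (pericytes and smooth muscle) stood at 178 ± 48.5 CPM, Cajal-Retzius neurons at 160 ± 73.7 CPM and endothelial cells at 70.5 CPM. The lowest choroid plexus value (314 CPM) was above the highest mural value (272 CPM). Endothelial cells, being many, held 18.5% of the UMIs.

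Igfbp2, a binding protein with a preference for IGF-2, shared the leading classes with Igf2. Fibroblast-like cells held 1112 ± 465 CPM and choroid plexus cells 1037 ± 470 CPM, with overlapping ranges. Neurogenesis cells (150 CPM, 6 UMIs), ependymal cells (145 ± 91.8 CPM) and astrocytes (135 ± 40.3 CPM) followed, and their ranges overlapped each other. Because astrocytes were numerous, they held 40.1% of the 744 Igfbp2 UMIs. Across the 17 class means of log2(CPM + 10), Igf2 and Igfbp2 had a Pearson r of 0.76, a description over points that share libraries.

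Free choroid plexus RNA bears on both genes, since the choroid plexus class held 2.59 Igf2 and 3.27 Igfbp2 UMIs for every 1000 Ttr UMIs. Cajal-Retzius neurons, whose Ttr averaged 38171 CPM, had 4.60 Igf2 and 3.42 Igfbp2 UMIs per 1000 Ttr UMIs. Oligodendrocytes had 3.80 and 4.16. The ratio for Igfbp2 was 41.2 in astrocytes, 43.4 in ependymal cells and 322.8 in fibroblast-like cells, and that for Igf2 was 22.1 in endothelial, 56.5 in mural and 718 in fibroblast-like cells. At the choroid plexus ratio, 95.5% of the Igfbp2 and 56.4% of the Igf2 UMIs of Cajal-Retzius neurons would be accounted for, and 7.93% of the Igfbp2 UMIs of astrocytes. The Ttr of Cajal-Retzius neurons did not follow that of other classes, since it was also high (21206 CPM) in PBS mouse 3. In PBS mouse 3, Ttr stood at 99.0 CPM in mural cells and 0 in fibroblast-like cells, which had 22 and 48 Igf2 UMIs. Its astrocytes had 38 Igfbp2 UMIs (114 CPM), with Ttr at 926 CPM. In oligodendrocytes of the same mouse Igf2 had 0 UMIs. Levels of Igf2 and Igfbp2 in neurons and oligodendrocytes are not read as expression here.

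**Figure D2:**
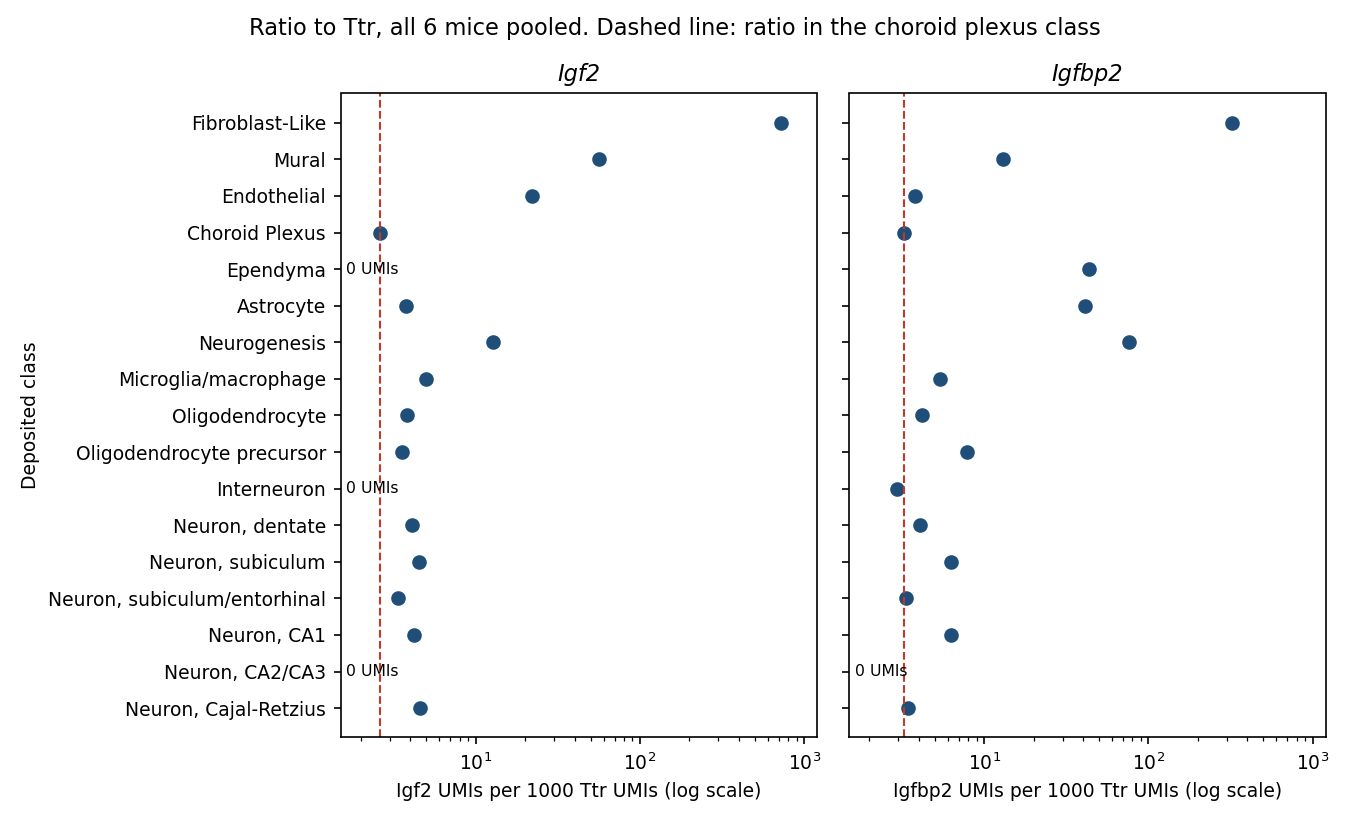
Igf2 (left) and Igfbp2 (right) UMIs per 1000 Ttr UMIs on a log axis, 1 point for each deposited class with all 6 mice pooled, and the choroid plexus ratio as a dashed line. Most neuron classes and oligodendrocytes lie near the line, while fibroblast-like cells lie at 718 for Igf2 and 322.8 for Igfbp2.

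Fibroblast-like cells were not uniform for these genes. Of 108 cells, 63 had an Igf2 UMI, 26 had an Igfbp5 UMI and 7 had both, whereas 47 had both Igf2 and Igfbp2 and 18 had both Igfbp4 and Igfbp5. The 47 cells with 2 or more Igf2 UMIs held Igfbp5 at 17.8 CPM, Igfbp4 at 303 CPM and Igfbp7 at 160 CPM. The 45 cells without an Igf2 UMI held them at 1409, 1390 and 1641 CPM. Igfbp5 was higher in the Igf2-rich cells of 0 of 6 mice. The genes that led in these Igf2-rich cells included Vtn, which encodes vitronectin (1748 against 57.9 CPM), the sulphate transporter Slc13a4, the amino acid transporter Slc6a20a (1480 against 154) and Gatm. Tgfbi, Alpl, Mgp, which encodes matrix Gla protein (464 against 8900), and the prostaglandin synthase gene Ptgs2 were low in them. The split was seen in the data, cells of 1 mouse are no replicates, and no test was made.

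The receptor Igf1r stood apart in endothelial cells. Its level there was 549 ± 91.8 CPM (423 to 683), and the lowest endothelial value exceeded the highest value of every other class, which was 357 CPM in a CA2 and CA3 class of 47 cells. Endothelial cells held 59.8% of the 1815 Igf1r UMIs. Mural cells followed at 124 ± 69.1 CPM, and ASO mouse 3 had none in 64 mural cells. Microglia stood at 87.4 CPM, and the means of the remaining classes lay between 30.4 and 104 CPM with overlapping ranges. After each cell was thinned to 500 UMIs, 22.6% of endothelial cells kept an Igf1r UMI, against 2.53% of oligodendrocytes (39.2% and 4.83% before thinning; median depths 1026 and 1037 UMIs). Kdr, the main receptor for vascular endothelial growth factor, had the class pattern most like that of Igf1r (r = 0.91 over 17 classes), followed by Bmx and Ctla2a.

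Endothelial cells with venous marker RNA held more Igf1r than those with arterial marker RNA. The levels were 706 CPM in 326 venous-marked cells and 408 CPM in 506 arterial-marked cells. Igfbp3 ran the other way, with 58 UMIs (99.9 CPM) in arterial-marked and 2 UMIs (5.25 CPM) in venous-marked cells, and Igfbp7 stood at 1648 and 1024 CPM. In the 255 endothelial cells with 2 or more Igf1r UMIs, the arterial genes Gkn3 and Mgp were at 117 and 189 CPM, against 449 and 630 CPM in the 1100 cells with none, and both were higher in 0 of 6 mice. Igfbp3 was at 15.8 against 78.1 CPM. Gkn3, Mgp and Igfbp3 were among the 5 genes with the lowest ratio in this comparison, so the counts of mice add no support. Median depths were 1190 and 951 UMIs.

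Igf2r was read thinly, with 234 UMIs in all. The mean level lay between 7.04 CPM (microglia) and 41.4 CPM (the subiculum and entorhinal class) wherever a UMI was seen, and ranges of classes next to each other in this order overlapped. Dentate neurons (31.9 ± 16.1 CPM, from 16.4 to 60.6) held 17.9% of its UMIs and lay above microglia (0 to 15.4 CPM) without overlap. The antisense gene Airn had 705 UMIs of its own and overlaps the 5' part of Igf2r, away from its 3' end. Polr2b (911 UMIs) overlaps the 3' end of Igfbp7 on the opposite strand. The protein-coding gene Gm49394 overlaps Igf2 on the same strand and was not among the genes counted. Whether the counting used strand is not given in the sources used here.

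Igfbp3, the main carrier of IGFs in blood, was read in oligodendrocyte precursors and endothelial cells. The precursors stood at 99.0 ± 34.8 CPM (41.5 to 132) with 40.6% of 266 UMIs, and endothelial cells at 54.4 ± 37.4 CPM (27.2 to 129) with 41.7%. These ranges overlapped. Mature oligodendrocytes held 0.963 CPM, below the precursors in each mouse. In precursors the gene was spread thinly, with 1 UMI in 87 cells and more in 10.

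Igfbp4 was highest in fibroblast-like cells at 730 ± 402 CPM, whose lowest value (371 CPM) exceeded the highest of any other class. Mural cells followed at 156 ± 44.1 CPM and interneurons at 93.0 CPM (12 UMIs). In mural cells it was tied to smooth muscle: cells with smooth muscle markers alone held 61 UMIs (256 CPM), and the 62 cells with pericyte markers alone held 0, which allows up to 54.8 CPM at 3 UMIs. Igf2 was distributed the other way, at 347 CPM (19 UMIs) in pericyte-marked and 16.8 CPM (4 UMIs) in smooth muscle-marked cells. The 172 mural cells with neither or both marker sets held 59 Igf2 UMIs (340 CPM) and 15 Igfbp4 UMIs (86.4 CPM). Igfbp5 had 17 UMIs in smooth muscle-marked and 0 in pericyte-marked cells.

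Igfbp5, which binds both ligands and the extracellular matrix, had its largest share of 1167 UMIs in astrocytes (43.3%) and dentate neurons (23.1%). Fibroblast-like cells had the highest mean at 763 ± 596 CPM, but it ran from 148 to 1857 CPM. Astrocytes (226 ± 35.3 CPM), subiculum neurons (205 ± 129.9 CPM) and dentate neurons (192 ± 86.6 CPM) had overlapping ranges. Oligodendrocytes and endothelial cells held 12.9 and 5.92 CPM. In contrast to its neighbour Igfbp2, which dentate neurons held at 11.7 CPM, Igfbp5 was thus read in neurons as well as glia. In the 97 astrocytes with 2 or more Igfbp5 UMIs, Gfap, the intermediate filament protein of astrocytes, was at 1345 CPM. In the 1513 astrocytes with none it was at 526 CPM, and it was higher in the Igfbp5-rich cells of 6 of 6 mice. Gfap was picked as the gene with the highest ratio in this comparison, so the count of mice adds no support. Median depths were 1374 and 1044 UMIs.

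Igfbp6, a binding protein with a strong preference for IGF-2, had 96 UMIs. Subiculum neurons held 31.2% of them at 91.8 ± 21.2 CPM (71.3 to 127), and fibroblast-like cells stood at 119 ± 95.2 CPM from 13 UMIs. The lowest subiculum value was above the highest of each class ranked below it. Dentate neurons averaged 21.0 CPM, of which PBS mouse 1 alone gave 14 of 27 UMIs.

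Igfbp7 was a vessel gene here. Mural cells stood at 2527 ± 516 CPM (1693 to 3113), and endothelial cells at 1418 ± 265 CPM (997 to 1679). The lowest mural value (1693 CPM) was just above the highest endothelial value (1679 CPM). Endothelial cells, being more numerous, held 67.2% of its 4252 UMIs. Outside vessels, fibroblasts and the choroid plexus (93.3 CPM), the highest class mean was 40.03 CPM, in ependymal cells. The class patterns most like it were those of Gm20748, Vtn and Tinagl1 (r = 0.99, 0.98 and 0.97 over 17 classes).

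The treatment comparison asked whether these genes differed between ASO and PBS mice in each class. All 10 genes could be tested over all cells, 4 in endothelial and 4 in mural cells, 2 in the microglia and macrophage class, 2 in dentate neurons, and 1 each in subiculum neurons, oligodendrocytes and oligodendrocyte precursors, while the rest had too few UMIs. In CA1 and Cajal-Retzius neurons none could be tested. Of those tested, 0 passed an adjusted p of 0.05 (edgeR quasi-likelihood test on counts summed per mouse, Benjamini-Hochberg over all genes of the class). Igfbp5 in each fitted class entered the value that chose the list, so for Igfbp5 this count is a description only. The share of all tested genes that passed was 0.00714% in all cells, 0.0365% in the microglia and macrophage class, 0.257% in mural cells, 0.238% in oligodendrocytes, 0.188% in subiculum neurons, 0.0447% in oligodendrocyte precursors, and 0% in endothelial cells and dentate neurons (also 0% in CA1 and Cajal-Retzius neurons). At an unadjusted p under 0.05 there was 1 of 2 IGF genes in microglia, 2 of 4 in endothelial cells and 2 of 10 in all cells, against 5.52%, 4.1% and 4.07% of all genes tested there. Mural cells had 0 of 4 and dentate neurons 0 of 2, against 8.02% and 3.32%. Subiculum neurons, oligodendrocytes and precursors had 0 of 1 each, against 5.84%, 6.6% and 4.04%. The fit over all cells counts the cells of these classes again. DESeq2 called 0 of the IGF genes. In simulated data with known changes, 58% of genes with a 2-fold and 86% with a 4-fold change were recovered in the microglia class. In the endothelial class it was 44% and 89%. At a 2-fold change the classes ran from 34% (Cajal-Retzius neurons) to 69% (oligodendrocytes). The changed genes were drawn at random from all tested genes and smaller changes were not simulated. These rates are therefore not those of the IGF genes. In the values over all cells, fewer cells of a type and less RNA per cell cannot be told apart.

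**Figure D3:**
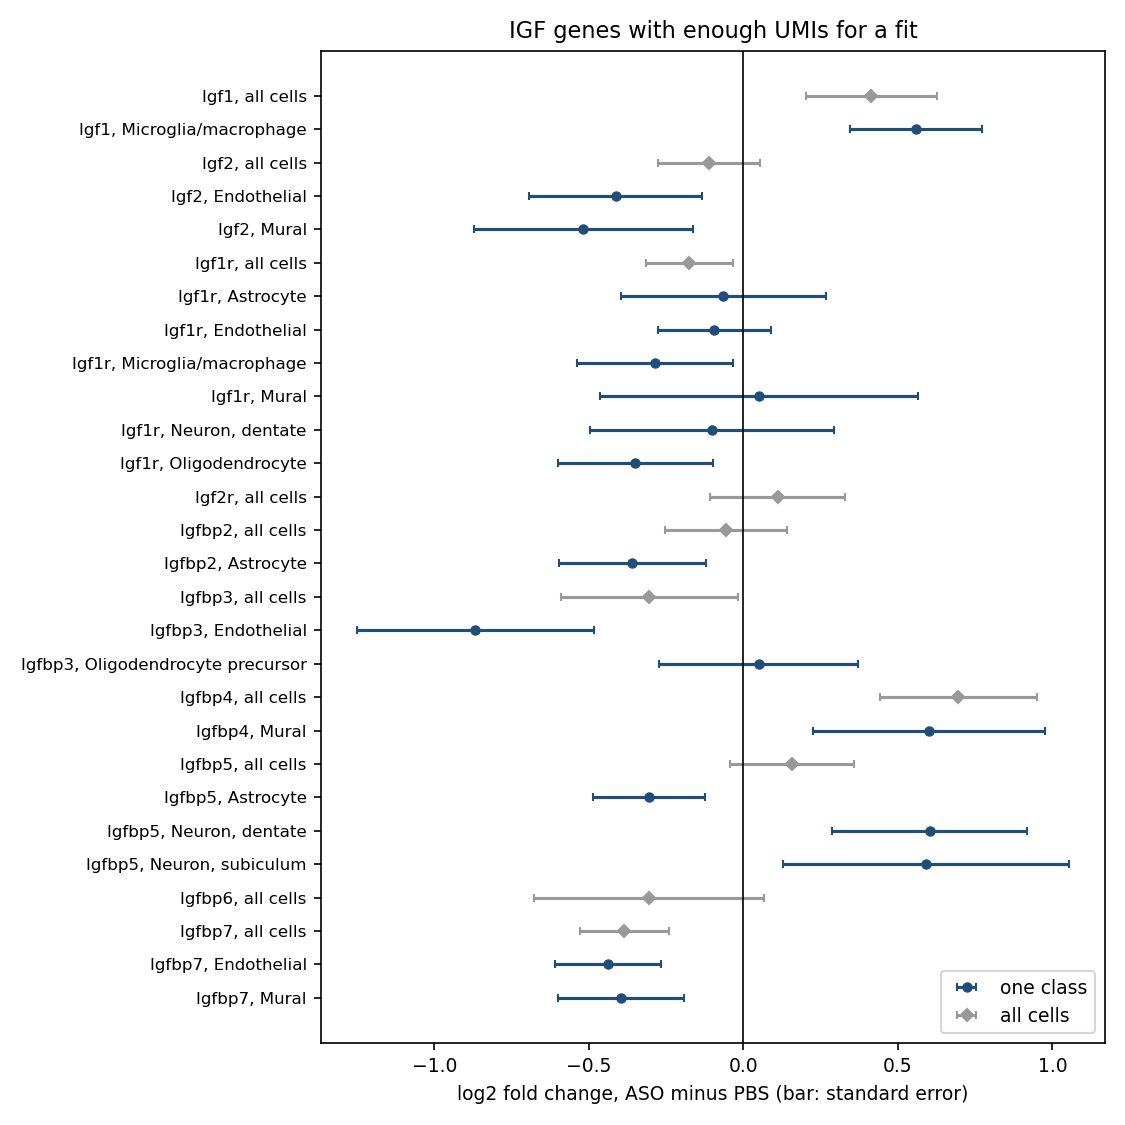
Fitted log2 fold change (ASO minus PBS) with its standard error for every IGF gene and class with enough UMIs for a fit. Igf1 in microglia (0.56) and Igfbp4 (0.60 in mural cells) lie right of 0, and Igfbp7 lies left of 0 in endothelial (-0.44) and mural cells (-0.40). Astrocyte points belong to the contrast that chose the list, and the Igfbp5 points of other classes entered the same value.

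Igf1 in microglia was higher in each ASO mouse than in any PBS mouse, short of the adjusted threshold. The normalised levels were 103, 148 and 143 CPM under PBS, against 180, 205 and 203 CPM under ASO, so the groups did not overlap, as was true of 11% of all genes tested in that class (9.02% in all cells, 9.01% in CA1, 9.45% in Cajal-Retzius, 8.49% in dentate and 9.79% in subiculum neurons, 11.5% in oligodendrocytes and 9% in precursors). The log2 fold change was 0.56 ± 0.21 (SE; adjusted p = 0.779, edgeR; unadjusted 0.0126). The 3 technical sets are pairs of 1 PBS and 1 ASO mouse next to each other in the order of their ratio of mt-Rnr2 to mt-Cytb UMIs. These ratios were 12.86 and 10.93 for PBS and ASO mice 1, 7.16 and 4.49 for mice 2, and 16.79 and 15.87 for mice 3. Within the sets of mice 1, 2 and 3 the log2 difference of Igf1 was 0.80, 0.47 and 0.51. Groups that do not overlap give positive values in any such pairing, so these signs add no support. With macrophage-marked cells left out, the fold change was 0.48 with an adjusted p of 0.901. The share of cells with 2 or more Igf1 UMIs was 1.47%, 3.11% and 2.83% under PBS, against 3.64%, 4.48% and 4.38% under ASO. Macrophage markers summed to 132 to 619 CPM in PBS and 293 to 572 CPM in ASO mice. Oligodendrocyte markers in this class summed to 923 to 1251 CPM in PBS and 1362 to 1456 CPM in ASO mice, all 6 of 6 being detected, and their part in the result was not tested.

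Igfbp7 had lower values in ASO mice in both vessel classes, short of the adjusted threshold. In endothelial cells the normalised levels were 1854, 1827 and 1737 CPM in PBS and 1360, 1508 and 1127 CPM in ASO mice. Their log2 fold change was -0.44 ± 0.17 (SE; adjusted p = 0.9995, edgeR; unadjusted 0.0146). In mural cells they were 4943, 4652 and 4113 CPM against 3721, 3912 and 2750 CPM, and the log2 fold change was -0.40 ± 0.20 (SE; adjusted p = 0.657, edgeR; unadjusted 0.0615). The groups did not overlap in either class, as for 9.53% of endothelial and 12.4% of mural genes. The difference was therefore negative in every technical set in both classes, as any pairing of groups that do not overlap would give. Both classes come from the same 6 mice. Mural markers summed to 3365 to 4481 CPM in endothelial cells of PBS mice and 2742 to 3364 CPM in those of ASO mice, with 6 of 6 detected. The 5 mural markers tested in endothelial cells all had negative fold changes (median -0.40). Acta2 and Vtn were among the 5 leading genes by ratio in the 725 endothelial cells with 2 or more Igfbp7 UMIs. They stood at 127 and 646 CPM, against 16.0 and 254 CPM in the 570 cells with none. The part of mural RNA in the endothelial fold change of Igfbp7 was not tested. Endothelial markers in mural cells summed to 2429 to 4121 CPM in PBS and 620 to 2516 CPM in ASO mice. Pericyte markers in mural cells summed to 2053 to 2508 and 1164 to 1917 CPM, and smooth muscle markers to 16833 to 19754 and 20442 to 23599 CPM. Without mural cells that held an endothelial or fibroblast marker UMI, the mural fold change of Igfbp7 was -0.48 with an adjusted p of 0.843. With all mural cells, but without ASO mouse 3, it was -0.25. Igfbp7 stood at 1991 CPM in pericyte-marked and 2720 CPM in smooth muscle-marked cells. In smooth muscle-marked cells it was at 3465, 3790 and 2896 CPM in PBS and 2454, 2545 and 1974 CPM in ASO mice. In pericyte-marked cells it was at 2155, 2027 and 1681 against 2346, 1981 and 991 CPM. Cells with neither or both marker sets had 2924, 2867 and 2431 against 2135, 2445 and 1340 CPM. The part of the pericyte share in the mural fold change was not tested.

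Igf2 and Igfbp4 in mural cells are given beside those marker sums. Igf2, whose mural UMIs were mostly in cells with neither or both marker sets, was higher in pericyte-marked than in smooth muscle-marked cells. It had normalised levels of 277, 268 and 446 CPM in PBS and 218, 230 and 270 CPM in ASO mice (log2 fold change -0.52 ± 0.36, SE; adjusted p = 0.836, edgeR). Igfbp4, read in smooth muscle-marked cells, had 213, 234 and 162 CPM in PBS and 346, 314 and 221 CPM in ASO mice (0.60 ± 0.38, SE; adjusted p = 0.814, edgeR). Both pairs of groups overlapped, although Igf2 did not in CPM of all UMIs (174, 174 and 272 against 137, 146 and 166). Igfbp5 in mural cells was too sparse for the fit, with 0, 1 and 0 UMIs in PBS and 9, 2 and 6 UMIs in ASO mice. Without PBS mouse 3 the Igf2 fold change was -0.21. Over all cells Igfbp4 had a log2 fold change of 0.70 ± 0.25 (SE; adjusted p = 0.999, edgeR), which was 0.40 without ASO mouse 1, and Igfbp7 one of -0.38 ± 0.14 (adjusted p = 0.999, edgeR). Without ASO mouse 3 this Igfbp7 value was -0.25. In fibroblast-like cells Igfbp4 had 23 UMIs in the PBS mice together and 82 in the ASO mice. Such cells numbered 9, 19 and 11 under PBS, against 27, 22 and 20 under ASO. Over all cells 3 of 4 tested fibroblast markers and 5 of 5 smooth muscle markers had positive fold changes (medians 0.34 and 0.38), and their part in the Igfbp4 value was not tested.

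The receptors showed no difference beyond the spread between mice. Endothelial Igf1r stood at 577, 686 and 612 normalised CPM in PBS and 462, 545 and 772 CPM in ASO mice, so the ASO mice lay on both sides of the PBS mice (log2 fold change -0.09 ± 0.18, SE; adjusted p = 0.9995, edgeR). In microglia the fold change was -0.29 ± 0.25 and in oligodendrocytes -0.35 ± 0.25, with adjusted p of 0.921 and 0.889 (edgeR). Igf2r could be fitted only over all cells, at 0.11 ± 0.22 (adjusted p = 0.999, edgeR).

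A single PBS mouse carried the endothelial Igfbp3 difference. PBS mouse 2 stood at 142 normalised CPM, and the other 5 mice between 29.7 and 56.4 CPM. The log2 fold change was -0.87 ± 0.38 (SE; adjusted p = 0.9995, edgeR) and became 0.05 without that mouse. Of the 16 endothelial cells with 2 or more Igfbp3 UMIs, 7 came from it.

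**Figure D4:**
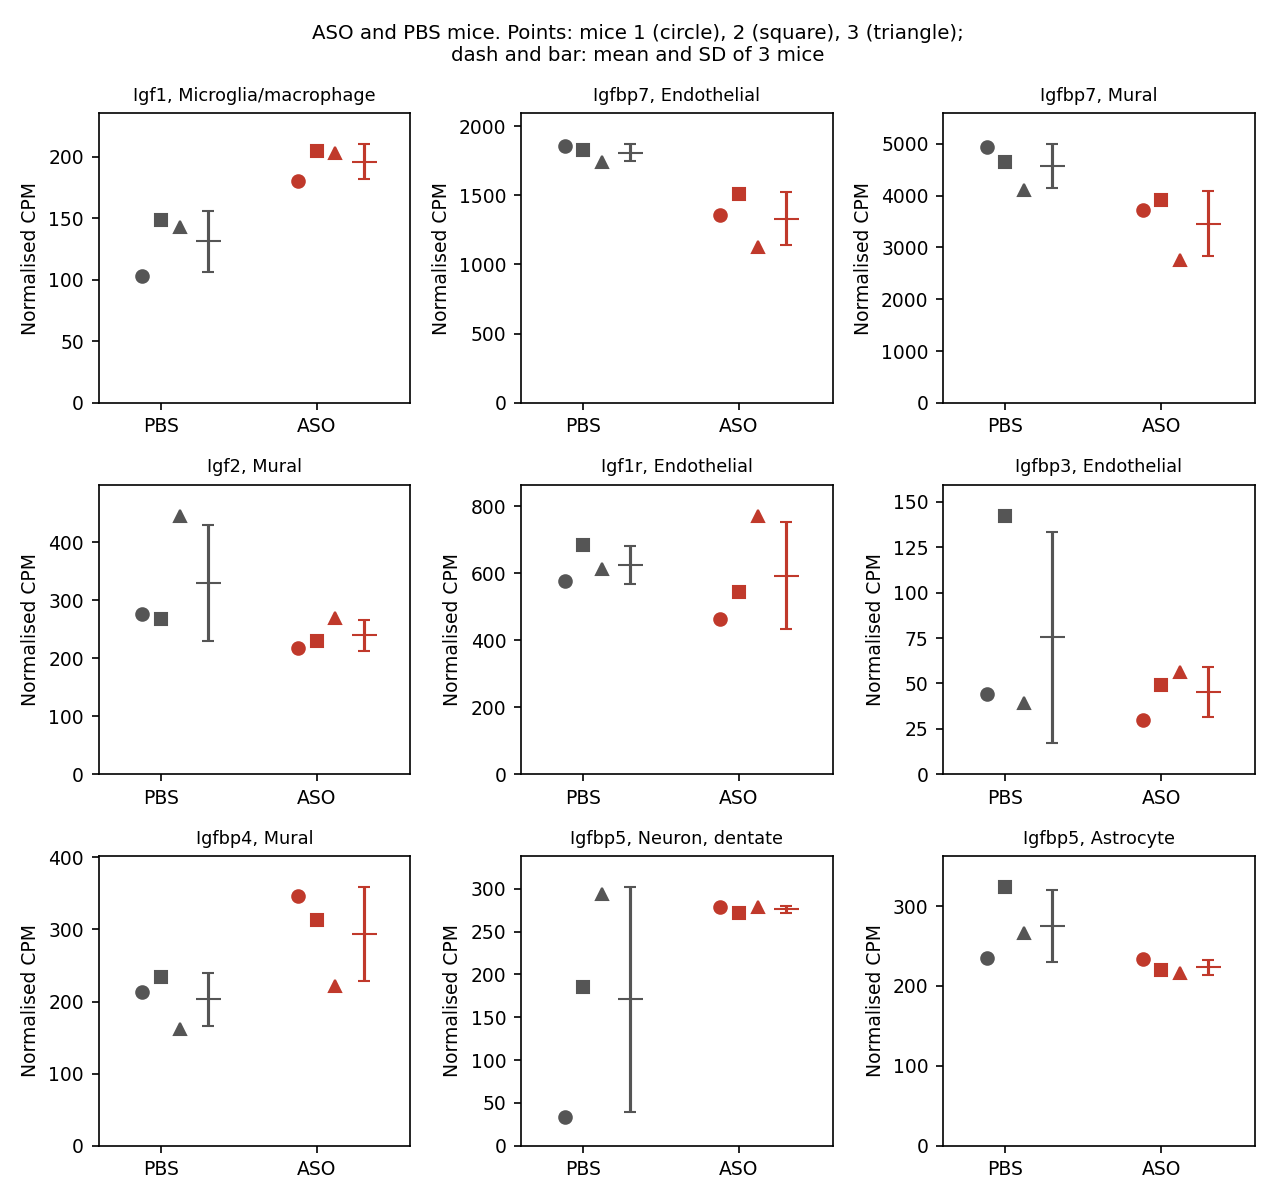
Normalised CPM of 9 gene and class pairs in each PBS (grey) and ASO (red) mouse, with mean and SD of 3 mice per group. Groups do not overlap for Igf1 in microglia, for Igfbp7 in both vessel classes and, by a narrow margin, for Igfbp5 in astrocytes. PBS mouse 2 is high for Igfbp3 in endothelial cells and PBS mouse 1 low for Igfbp5 in dentate neurons.

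Igfbp5 in astrocytes belongs to the contrast that chose the list, so its values are a description with no test. The normalised levels were 235, 324 and 266 CPM in PBS and 234, 220 and 216 CPM in ASO mice, a log2 fold change of -0.31 ± 0.18 (SE). The values of mouse 1 were close in both groups, with PBS mouse 1 just above ASO mouse 1, the highest of the ASO mice. PBS mice 2 and 3 lay further above, so the groups did not overlap. Without PBS mouse 2 the fold change was -0.15. Igfbp2 in astrocytes had 208, 165 and 128 CPM in PBS and 169, 82.5 and 136 CPM in ASO mice (-0.36 ± 0.24, or -0.11 without ASO mouse 2, -0.63 without ASO mouse 1 and -0.18 without PBS mouse 1), with overlapping groups, and Igf1r had a fold change of -0.07. Of all genes tested in astrocytes, 0% passed and 8.99% did not overlap, Igfbp5 among the latter.

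Igfbp5 in neurons varied widely among PBS mice. The neuron classes fitted also entered the value that chose the list, so these values are a description. Dentate neurons stood at 33.4, 185 and 294 normalised CPM in PBS and at 278, 272 and 279 CPM in ASO mice (log2 fold change 0.60 ± 0.31, SE). The fold change was 0.18 without PBS mouse 1 and 1.30 without PBS mouse 3. Subiculum neurons stood at 114, 622 and 127 CPM in PBS and 668, 579 and 314 CPM in ASO mice (0.59 ± 0.46, SE). There PBS mice 1 and 3 were low and PBS mouse 2 high, and the fold change was 0.23, 2.03 and 0.30 without PBS mouse 1, 2 and 3, and 0.95 without ASO mouse 3. Over all neuron classes, PBS mouse 1 had 10 Igfbp5 UMIs in 325 cells (25.1 CPM), and the other mice had 145 to 186 CPM. Its astrocytes, at 219 CPM, lay among those of the other mice (196 to 292 CPM). Its dentate neurons had the highest Igfbp6 level, 64.6 CPM from 14 UMIs, against 5.89 to 23.1 CPM in the others, while dentate markers (Prox1, C1ql2, Dsp, Plk5 and Lct) summed to between 1088 and 1301 CPM in all 6 mice.

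**Figure D5:**
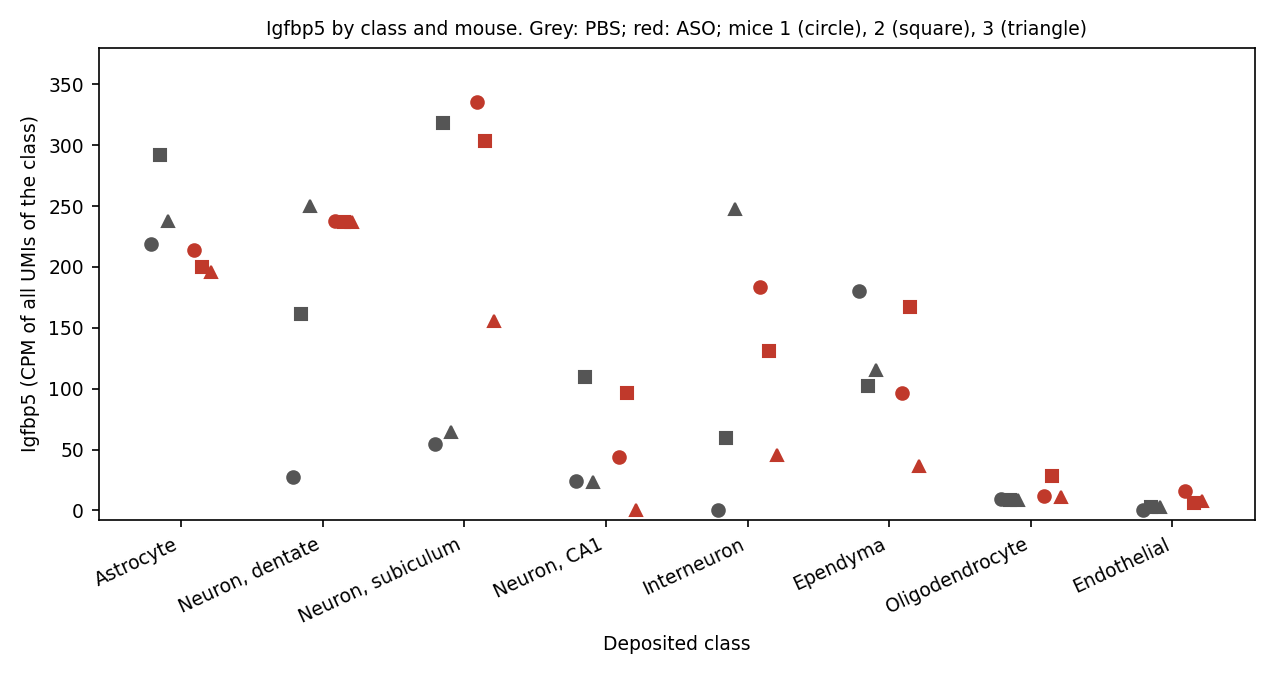
Igfbp5 in CPM of all UMIs (vertical axis) in 8 deposited classes, for each PBS (grey) and ASO (red) mouse; circles, squares and triangles are mice 1, 2 and 3 of each group. PBS mouse 1 lies at 27.7 CPM in dentate neurons while its astrocytes, at 219 CPM, lie among those of the other mice.

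The other genes of the pathway were counted from lists. Of 31 further genes of the IGF system (related receptors, binding proteins, carriers and proteases), 22 could be fitted in all cells, 10 with a positive and 12 with a negative fold change (median -0.01, against 0.00 over all 14002 genes), and none passed. Ctsd, the lysosomal protease cathepsin D, led this list with 17427 UMIs and was highest in microglia (7454 ± 1422 CPM). It was followed by Ctsb, cathepsin B (10626 UMIs, also microglia), Htra1, a secreted protease that cleaves binding proteins (3708 UMIs, astrocytes at 1160 CPM), and Cyr61, a matrix protein with a binding protein domain (2056 UMIs, ependymal cells at 1003 CPM). Insr, the insulin receptor, was highest in endothelial cells (203 ± 41.5 CPM), as was Igf1r. In oligodendrocytes Htra1 went from 328 to 193 normalised CPM (log2 fold change -0.79, adjusted p = 0.361) and Ctsb from 352.4 to 483 CPM (0.45, adjusted p = 0.357, edgeR).

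Of 44 genes of receptor signalling, 42 could be fitted in all cells, 23 positive and 19 negative (median 0.01), and none passed there or in a class. Those with most UMIs were Grb14, an adaptor that restrains insulin receptors and was highest in oligodendrocytes (841 ± 82.2 CPM), and the kinases and adaptor Gsk3b, Braf and Grb2. The lowest adjusted p was that of Phlpp1, a phosphatase of AKT, in oligodendrocytes: 486 in PBS and 303 normalised CPM in ASO mice (log2 fold change -0.67 ± 0.155, SE; adjusted p = 0.0562, edgeR). Irs2, an adaptor of IGF1R and the insulin receptor, had 148 and 322.7 CPM in mural cells (1.13 ± 0.40, SE; adjusted p = 0.323, edgeR). Insr, Phlpp1 and Irs2 were singled out after their values were seen.

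The genes with the class pattern most like each IGF gene, by Pearson r of log2(CPM + 10) over 17 classes, are a description over points that share libraries. For Igf1 they included Fcgr1 (0.80), a receptor for antibodies, and Ptgs1 (0.74). For Igf2 they were Ston1 (0.88), Slc6a20a (0.88) and Cdkn1c (0.86). For Igfbp2 they included Cox6b2 (0.90) and Msx1 (0.83). Igfbp4 was followed by Txndc11 (0.83), Dcn (0.81), which encodes the matrix proteoglycan decorin, and Gpc3 (0.78). For Igfbp3 and Igfbp5 the leading genes were Ptprg (0.80) and Insig2 (0.82), and for Igf2r it was Zcchc14 (0.86).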

How the data were processed

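UMI counts per gene and cell were deposited by the authors for 6 mice, with a class for each cell in the column names. Reads were processed with bcl2fastq and STAR 2.5.0c on mm10 (GRCm38), per the submitters' processing notes, and the counting program is not given in the sources used here. Of 12823 cells, 207 (1.61%) marked as doublets by Scrublet (scanpy 1.11.5, each mouse alone) were removed. Counts were summed per mouse and class, filtered with filterByExpr, scaled by TMM and fitted with edgeR 4.0.16 (R 4.3.3) as a two-sided quasi-likelihood test, with Benjamini-Hochberg adjustment within each class and a threshold of 0.05. The filter, scaling and edgeR fit were tested together on simulated counts. The labels do not say that mice share litters or batches. The p-values set a difference against the spread between these mice. With 1 sample per mouse, that spread also holds differences of preparation and counting.

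The 10 genes, the pathway lists and the markers were chosen with earlier results of these data known. Named were all 10 genes, list members that passed, the 4 list members with most UMIs, and the 3 genes most alike in class pattern among those with at least 200 UMIs. The astrocyte contrast chose the list and was not tested. Igfbp5 in the other fitted classes entered the same value. Intervals and floors (3 UMIs) cover counting error only. Alternatives were DESeq2 1.42.0, its size factors, no filter on low counts, a mitochondrial limit of 10%, doublets kept, marker-free cells, a technical set term and each mouse left out. Promoter sequences are from RefSeq, in which all 10 genes had an entry. Some genes that these rules name are not reported here.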

Additional observations from a re-analysis of the deposited data

Results flagged for a closer look

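The effect of ASO on Igfbp5 in astrocytes minus its mean effect in the other fitted classes was -1.70 on the log2 scale. This difference between classes is the value that led to the gene list, so it is given as a description with no test. In the classes other than astrocytes, Igfbp5 had 6, 37 and 85 UMIs in dentate neurons of PBS mice and 58, 41 and 43 in those of ASO mice. In mural cells it had 0, 1 and 0 UMIs in PBS and 9, 2 and 6 UMIs in ASO mice. The same difference was positive in mural cells (2.60 ± 1.25, SE), precursors (1.88 ± 0.99) and endothelial cells (1.08 ± 0.96). It was negative in the other fitted classes. Mural cells, precursors and endothelial cells held only 18, 18 and 13 Igfbp5 UMIs, yet each class had equal weight in the mean. Astrocytes had 69, 118 and 79 UMIs in PBS and 94, 80 and 65 UMIs in ASO mice.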

How the results depend on the processing

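Of the IGF genes that could be tested in classes other than astrocytes (1 to 4 of 10 in a class, and 0 in CA1 and Cajal-Retzius neurons in the fit reported), 0 passed the threshold under any of the 12 alternatives. For Igfbp5, which in those classes too entered the value that chose the list, this count is a description only. Of 336 alternative values of 28 fold changes, 315 kept their sign and 21 reversed, over 10 fold changes, none of which had passed. With each mouse left out, these ran from -0.47 to 0.22 for Igf1r in astrocytes, -0.32 to 0.067 in endothelial, -0.73 to 0.51 in mural cells and -0.40 to 0.20 in dentate neurons, from -0.0026 to 0.21 for Igf2r, -0.30 to 0.13 for Igfbp2, -0.58 to 0.12 for Igfbp3 and -0.10 to 0.45 for Igfbp5 over all cells, and for Igfbp3 from -1.18 to 0.0495 in endothelial cells and -0.18 to 0.27 in precursors. Other reversals were Igf1r in mural cells under DESeq2 (-0.11) and the technical set term (-0.17), in dentate neurons at the mitochondrial limit of 10% (0.054), and Igfbp3 in precursors under DESeq2 (-0.015) and the set term (-0.079). Igf1 in microglia ran from 0.42 to 0.65, Igfbp7 in endothelial cells from -0.54 to -0.34 and Igfbp5 from 0.18 to 1.30 in dentate and 0.23 to 2.03 in subiculum neurons.

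Counts of all genes called were 1 in all cells, 2 in microglia, 4 in mural cells, 2 in subiculum neurons, 17 in oligodendrocytes, 2 in precursors and 0 in the other fitted classes. DESeq2 gave 4 in all cells, 9 in oligodendrocytes and 0 in mural cells, subiculum neurons and precursors. Without a filter there were 28 in all cells, 2 in astrocytes, 9 in microglia, 4 in CA1, 1 in Cajal-Retzius, 4 in dentate and 0 in subiculum neurons, 41 in oligodendrocytes and 5 in precursors. With doublets kept there were 2 in all cells and 2 in mural cells, without mural cells holding an endothelial or fibroblast marker 0, and at the mitochondrial limit of 10% 1 in Cajal-Retzius neurons. With each mouse left out, counts ran from 0 to 8 in all cells, 0 to 1 in astrocytes, 0 to 1 in endothelial cells, 0 to 8 in microglia, 0 to 11 in mural cells, 0 to 4 in Cajal-Retzius, 0 to 2 in dentate and 0 to 3 in subiculum neurons, 6 to 30 in oligodendrocytes and 0 to 5 in precursors. The cause was not tested.

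The labels pair no mice, and the numbers follow sample order. Deviations of same-numbered mice correlated at 0.148, 0.137 and 0.0671, against -0.130 to -0.0016 for other pairs. The term for 3 technical sets, which is also a block over these numbers, gave 2 calls in all cells, 4 in microglia, 4 in dentate and 6 in subiculum neurons, 31 in oligodendrocytes and 5 in precursors. Leaving out cells with a Ttr UMI could not be run, since too few cells remained, and the mitochondrial limit of 10% left too few subiculum neurons.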

Other observations

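Igfbp2-rich astrocytes were not described above. In the 56 astrocytes with 2 or more Igfbp2 UMIs, Vcam1, an adhesion molecule, was at 479 CPM, against 184 CPM in the 1653 astrocytes without one, and Fjx1 at 567 against 284 CPM, both higher in 6 of 6 mice. Etnppl, an enzyme of phospholipid breakdown, was at 88.2 against 258 CPM and was higher in 0 of 6 mice. In the 97 Igfbp5-rich astrocytes, Luzp2 was at 275 against 744 CPM and the glutamate receptor gene Gria2 at 446 against 996 CPM, both higher in 0 of 6 mice. These genes were chosen after their values were seen, and no test was made.

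Igf1r-rich endothelial cells held Socs2, which restrains growth hormone signalling, at 161 CPM, against 84.1 CPM in cells without an Igf1r UMI. Socs2 was higher in the Igf1r-rich cells of 6 of 6 mice. It was picked from the genes with the highest ratio in this comparison, so the count of mice adds no support. Median depths were 1190 UMIs in the Igf1r-rich cells and 951 UMIs in those without an Igf1r UMI, and no test was made.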
